A study of Mus musculus with 12 samples.

Results

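Costimulatory receptors and ligands of the TNF family were followed by name in CD8 T cells of NOD mice, the strain that develops autoimmune diabetes. The group holds 9 of the 32285 genes in the count tables. They are 4 costimulatory receptors of the TNF receptor superfamily (Tnfrsf4, Tnfrsf9, Tnfrsf18 and Cd27), 2 receptors of the CD28 family (Icos and Cd28) and 3 TNF-family ligands (Tnfsf8, Tnfsf4 and Tnfsf14). They were chosen for what they encode, with earlier results of these data known. Single cells were sequenced in 6 libraries, 1 for each of 3 groups in each of 2 rounds. Every library came from a pool of 10 female prediabetic NOD/ShiLtJ mice aged 10 to 15 wk, so cells cannot be traced to a mouse and a group has 2 independent pools. IGRP+ cells bound an H-2Kd tetramer loaded with NRP-V7, a mimotope of a peptide of the β-cell antigen IGRP, and IGRP- cells did not. All cells were sorted as CD8+ and CD45.1+ without CD4, B220 or CD11b. Islet IGRP- and islet IGRP+ cells came from islets freed with collagenase P, whereas spleen IGRP+ cells were first enriched with magnetic beads and then gated as CD44+. Tissue, preparation and gate therefore cannot be told apart in the comparison of islet with spleen, and no IGRP- cells of the spleen were analysed.

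These molecules supply the signals that accompany recognition of antigen by the T-cell receptor. CD28 and ICOS bind B7-family ligands on antigen-presenting cells and engage PI3-kinase. OX40 (encoded by Tnfrsf4), 4-1BB (Tnfrsf9), GITR (Tnfrsf18) and CD27 recruit TRAF adaptors, activate NF-κB and favor survival and division. CD28 and CD27 are present on resting T cells, whereas ICOS, OX40 and 4-1BB are classically induced by activation. Among the ligands, OX40L (Tnfsf4) is the partner of OX40, CD30L (Tnfsf8) binds CD30, and LIGHT (Tnfsf14) binds HVEM and the lymphotoxin-β receptor. They are best known on antigen-presenting cells but can also be made by T cells.

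In the GENCODE annotation of the mouse build GRCm38, Tnfsf8 (chr4:63831308-63861347, minus strand), Tnfrsf9 (chr4:150914562-150946102, plus), Tnfrsf4 (chr4:156013843-156016612, plus) and Tnfrsf18 (chr4:156026164-156028895, plus) lie on chromosome 4. Cd28 (chr1:60716800-60773359, plus), Icos (chr1:60977927-61000320, plus) and Tnfsf4 (chr1:161395409-161418410, plus) lie on chromosome 1. Cd27 (chr6:125232622-125237010, minus) and Tnfsf14 (chr17:57189492-57194177, minus) have chromosomes to themselves. An exon of Tnfrsf18 overlaps the antisense gene Gm16008, and Cd27 shares exonic sequence with Mir8113. Tnfrsf9 lies within the span of Camta1, and Cd27 overlaps Vamp1, in both cases without a shared exon.

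Because the receptors moved together across tissues and Tnfsf14 moved the other way, the bases before the transcription start are shown for 3 of the genes, from the RefSeq promoter table of GRCm38.p6. The table held 6 of the 9 genes with 7 starts. Each line is the 250 bases that end at the start, on the strand of the gene, in lower case with a motif match in capitals. The Tnfrsf9 stretch (chr4:150919905-150920154, the more upstream of its RefSeq starts) lies in the spans of Camta1 and of Tnfrsf9 itself, and in no exon. The Cd27 stretch (chr6:125237028-125237277) lies in the span of Vamp1 and in no exon. The Tnfsf14 stretch (chr17:57194182-57194431) is intergenic.
Tnfrsf9: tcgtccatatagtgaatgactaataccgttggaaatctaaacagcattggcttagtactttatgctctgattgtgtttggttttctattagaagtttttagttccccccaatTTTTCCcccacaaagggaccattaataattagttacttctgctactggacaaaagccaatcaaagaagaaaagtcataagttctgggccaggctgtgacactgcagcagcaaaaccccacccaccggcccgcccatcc
Cd27: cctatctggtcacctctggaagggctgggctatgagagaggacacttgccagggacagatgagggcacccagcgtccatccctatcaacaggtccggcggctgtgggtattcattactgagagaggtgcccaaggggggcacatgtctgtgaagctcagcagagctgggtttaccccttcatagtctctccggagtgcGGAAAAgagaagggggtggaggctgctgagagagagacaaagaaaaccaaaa
Tnfsf14: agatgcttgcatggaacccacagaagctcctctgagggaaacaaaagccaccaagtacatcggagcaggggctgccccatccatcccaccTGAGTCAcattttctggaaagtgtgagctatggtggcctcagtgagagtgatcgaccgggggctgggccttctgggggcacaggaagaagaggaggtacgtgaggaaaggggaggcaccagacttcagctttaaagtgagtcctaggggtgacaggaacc
The capitals in Tnfrsf9 and Cd27 are the core of the NFAT motif, GGAAAA, read on the opposite strand in Tnfrsf9, and those in Tnfsf14 are the AP-1 motif TGANTCA. Both strands were searched. The NFAT core was in 20.4% and the AP-1 motif in 6.75% of all 32851 promoters of the same length, and an NF-κB motif in 7.25%. The downstream start of Tnfrsf9 had an AP-1 match 9 bases and overlapping NF-κB matches 33 and 34 bases before it, in annotated UTR. Tnfrsf18 had an NFAT core 191 bases before its start. A match is a description of the letters only.

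After filtering, 24117 of 26818 cells remained (84.6% to 95.04% per library), with 1204 to 8932 cells, 5880696 to 40469961 UMIs and a median of 2590 to 4216.5 UMIs per cell in a library. Levels are given as CPM (counts-per-million), the UMIs of a gene divided by all UMIs of the library or gate and scaled. The label of the cells was checked with markers. Transcripts of 6 CD8 T-cell genes summed to 4198 to 5884 CPM in the 6 libraries, while Cd4 and Foxp3 summed to 0.170 to 1.38, 4 B-cell genes to 1.53 to 11.4, and 3 genes of NK and γδ T cells to 0 to 1.75. Myeloid genes summed to 34.9 to 114 in the islet libraries and 17.2 to 17.5 in the spleen libraries, and acinar genes to 38.9 to 252 and 5.62 to 6.51. Endocrine genes summed to 3.05 to 13.8 in islets, and all 5 were at 0 in the spleen. Between 0.166% and 1.03% of the barcodes of the smaller library were shared between libraries.

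The first comparison asked how antigen-binding CD8 T cells of the islets differ from those of the spleen. All 9 genes passed the test in this comparison. All 4 TNF receptors, both CD28-family receptors and Tnfsf4 were higher in islet IGRP+ cells, and Tnfsf14 and Tnfsf8 were lower. Of 11277 genes tested, 13.7% were called higher and 12.9% lower. The median log2 change was 1.52 over the 9 genes and -0.03 over all genes tested. Tests were edgeR's quasi-likelihood test on UMIs summed per library, adjusted by the Benjamini-Hochberg method over all genes, with the 3 groups in 1 fit.

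**Figure D1:**
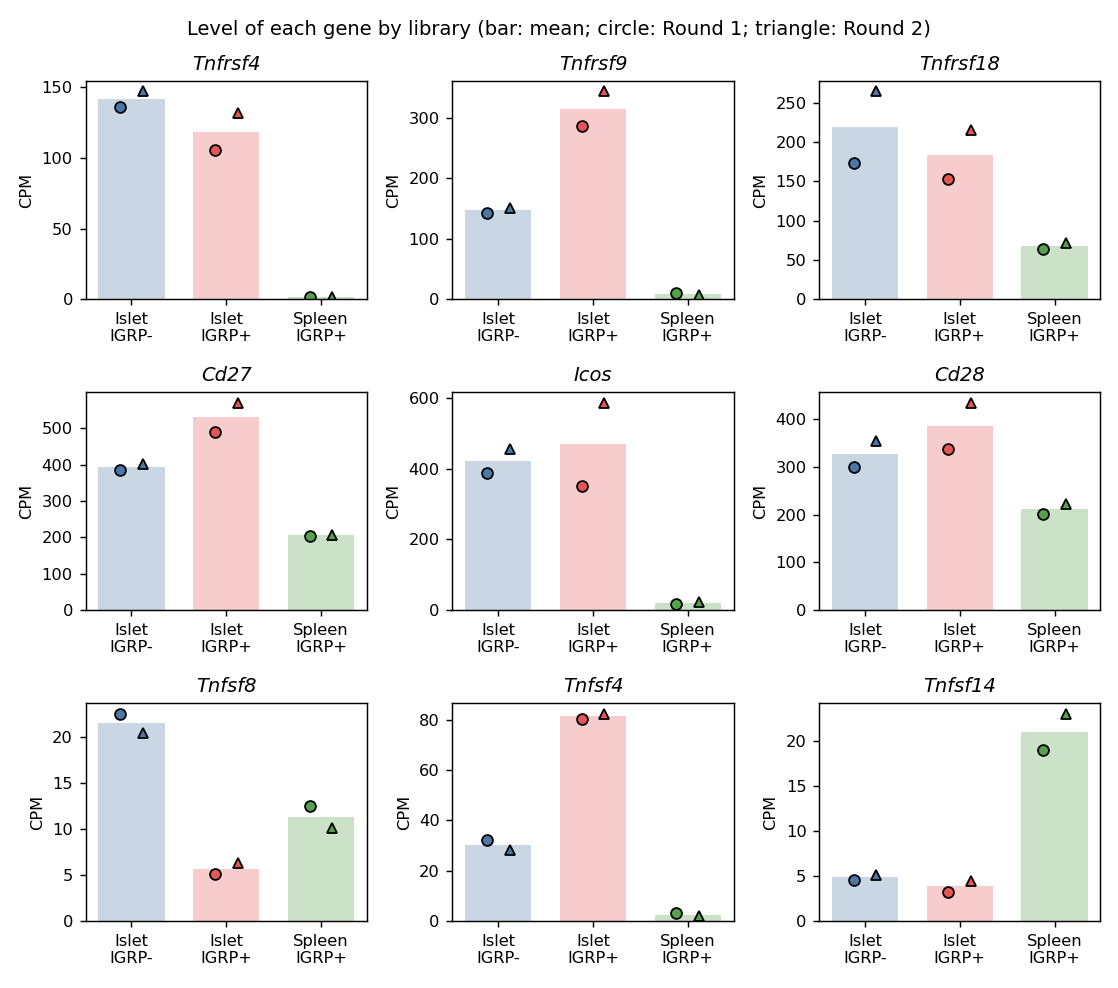
Level of the 9 genes in the 6 libraries, as CPM on a linear axis from 0. Bars are the means of 2 libraries, circles Round 1 and triangles Round 2. Tnfrsf4, Tnfrsf9, Icos and Tnfsf4 are near 0 in the spleen beside the islets, and Tnfsf14 has its highest values in the spleen.

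Tnfrsf4, which encodes OX40, showed the widest gap between tissues. Its level in Rounds 1 and 2 was 106 and 132 CPM in islet IGRP+ cells and 1.77 and 1.45 in spleen IGRP+ cells, the latter from 17 and 10 UMIs in all. The log2 change was 6.25 (SE 0.23, adjusted p = 0.000904, edgeR), a 76.4-fold difference. It was 5.90 within Round 1 and 6.48 within Round 2. Islet IGRP- cells, at 136 and 147, stood at the islet level, so the gap separated both islet groups from the spleen.

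Tnfrsf9, which encodes 4-1BB, followed with 287 and 344 CPM in islet IGRP+ cells against 9.78 and 6.95 in the spleen. The fitted log2 change was 5.29 (SE 0.29, adjusted p = 0.00120, edgeR). Icos was at 350 and 587 in the islet libraries and 18.5 and 22.7 in the spleen libraries, with a log2 change of 4.58 (SE 0.25, adjusted p = 0.00120, edgeR). For both genes the lower islet library was far above the higher spleen library. The round-to-round spread of Icos in islet IGRP+ cells, 468 ± 167 CPM (SD, n = 2), was the widest of the 9 genes.

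Cd27 and Cd28, which encode receptors of resting T cells, and Tnfrsf18 differed less between tissues. Cd27 was at 489 and 571 CPM in islet IGRP+ cells and 205 and 207 in the spleen (log2 change 1.45, SE 0.18, adjusted p = 0.00506, edgeR). Cd28 was at 338 and 434 against 201 and 223 (log2 change 0.95, SE 0.16, adjusted p = 0.0117). Tnfrsf18, which encodes GITR, was at 153 and 216 against 64.4 and 71.2 (log2 change 1.52, SE 0.22, adjusted p = 0.00737). In each of these 3 genes the groups did not overlap, and the spleen libraries held clearly measurable levels. The Cd28 call was lost when either spleen library was left out (adjusted p = 0.0713 without Round 1 and 0.0894 without Round 2), and that of Tnfrsf18 without the spleen library of Round 2 (0.0581).

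The ligands did not move as a group. Tnfsf4, encoding OX40L, was at 80.3 and 82.3 CPM in islet IGRP+ cells and 3.23 and 2.03 in the spleen (log2 change 4.99, SE 0.33, adjusted p = 0.00144, edgeR). Tnfsf14, encoding LIGHT, was at 3.23 and 4.51 in islet IGRP+ cells and 19.0 and 23.0 in the spleen (log2 change -2.34, SE 0.20, adjusted p = 0.00234). OX40L and LIGHT transcripts thus differed between the tissues in opposite directions, and neither gene overlapped. Tnfsf8, encoding CD30L, was at 5.10 and 6.39 in islet IGRP+ cells and 12.6 and 10.1 in the spleen, with a log2 change of -0.92 (SE 0.26, adjusted p = 0.0494). Its call was lost in 10 of 15 alternative settings, including each of the 6 that left out a library.

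The tissues were also compared in cells of shared clones, since the T-cell receptor sequences tied 31 clones in Round 1 and 35 in Round 2 to both islets and spleen. Cells of all these clones were summed per library, so no clone was compared with itself and clone proportions may differ between the tissues. Restricting the islet and spleen IGRP+ libraries to these clones left 632 and 1134 islet cells and 1375 and 1445 spleen cells. Tnfrsf4 was then at 109 and 117 CPM in islets and 1.87 and 1.21 in the spleen, and its log2 change was 6.33 (adjusted p = 0.000860, edgeR). Tnfrsf9 had a log2 change of 5.52 and Icos of 4.65 in these cells, both called. The exception was Tnfsf8, whose levels of 5.82 and 5.44 in islets were above those of 1.07 and 3.38 in the spleen (4 and 14 UMIs). Its log2 change was 1.45 with an adjusted p of 0.0619, the opposite sign of the whole-library value. In these clones 8 of the 9 genes were called, where 23.3% of 10546 genes were called in either direction.

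**Figure D2:**
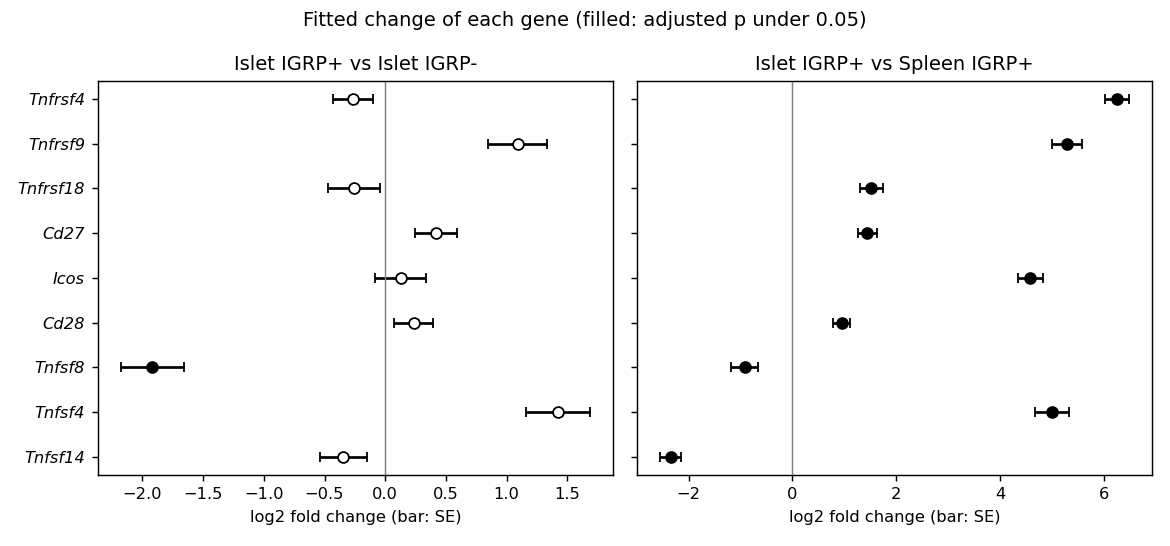
Fitted log2 fold change of each gene in islet IGRP+ cells against islet IGRP- cells (left) and against spleen IGRP+ cells (right), with bars of 1 SE from the fit over 6 libraries. Filled points have an adjusted p under 0.05. The 9 points on the right are filled, from 6.25 for Tnfrsf4 to -2.34 for Tnfsf14, and on the left only Tnfsf8 is filled.

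The second comparison asked whether binding of the tetramer went with these genes among cells of the same islets. It shares the islet IGRP+ libraries with the first. Tnfrsf9 and Tnfsf4 had higher values and Tnfsf8 lower values in islet IGRP+ cells in both rounds, but only Tnfsf8 passed the test, that is 1 of 9 genes where 1.19% of 11277 genes were called. At an unadjusted p under 0.05 there were 3, and the number over all genes was not counted. The median log2 change was 0.13 over the 9 genes and -0.01 over all genes tested. With the round as a block, 4 of the 9 genes were called (Tnfsf8, Tnfsf4, Tnfrsf9 and Cd27), where 30.5% of all genes were. Myeloid genes summed to 82.2 and 114 CPM at the ends of the islet IGRP- range and 34.9 and 76.3 in islet IGRP+ cells. Their part in these values was not tested beyond leaving out cells with markers of other types. That kept the count at 1, where 153 of 11176 genes were called.

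Tnfsf8 was at 22.6 and 20.5 CPM in islet IGRP- cells and 5.10 and 6.39 in islet IGRP+ cells. The log2 change was -1.92 (SE 0.26, adjusted p = 0.0397, edgeR), a 3.78-fold difference, with -2.07 and -1.72 within the rounds. The groups did not overlap. Leaving out any one of the 6 libraries ended the call (adjusted p = 0.0667 to 0.205), while the log2 change stayed between -2.05 and -1.76.

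Tnfsf4 was at 32.2 and 28.2 CPM in islet IGRP- cells and 80.3 and 82.3 in islet IGRP+ cells, without overlap. The log2 change was 1.42 (SE 0.26, adjusted p = 0.0797, edgeR; 2.92e-06 with the round as a block). Tnfrsf9 was at 143 and 151 and at 287 and 344, again without overlap, with a log2 change of 1.09 (SE 0.24, adjusted p = 0.110; 7.42e-05 with the block). In both genes the change within each round was close to the fitted one, at 1.37 and 1.48 for Tnfsf4 and 1.06 and 1.13 for Tnfrsf9. Cd27 was at 386 and 402 and at 489 and 571, with a log2 change of 0.42 (adjusted p = 0.294; 0.0170 with the block).

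The other 5 genes did not pass in either fit. Tnfrsf4 had 136 and 147 CPM in islet IGRP- cells and 106 and 132 in islet IGRP+ cells (log2 change -0.26, SE 0.17, adjusted p = 0.445, edgeR), a change with the opposite sign of that of the ligand gene Tnfsf4. Icos (387 and 455 against 350 and 587), Cd28 (298 and 354 against 338 and 434) and Tnfrsf18 (173 and 265 against 153 and 216) overlapped between the groups. Their log2 changes were 0.13, 0.23 and -0.26. Within Rounds 1 and 2 the changes were -0.09 and 0.30 for Icos, 0.23 and 0.23 for Cd28, and -0.13 and -0.36 for Tnfrsf18. Tnfsf14 was at 4.63 and 5.16 against 3.23 and 4.51, with a log2 change of -0.34 (adjusted p = 0.400). In order of mean level, islet IGRP+ cells stood first for Tnfrsf9, Tnfsf4, Cd27, Icos and Cd28, islet IGRP- cells for Tnfrsf4, Tnfrsf18 and Tnfsf8, and spleen IGRP+ cells for Tnfsf14. The step between the islet groups lay within their library ranges for Icos, Cd28 and Tnfrsf18.

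Islet cells were then separated by whether they held a UMI of Pdcd1, which encodes the inhibitory receptor PD-1 and is induced by antigen. Pdcd1 itself was higher in islet IGRP+ cells, at 568 and 718 CPM against 291 and 273 (log2 change 1.18, adjusted p = 0.0445, edgeR). Cells with a Pdcd1 UMI numbered 844 and 1168 in the islet IGRP+ libraries (70.1% and 73.1%) and 2400 and 2966 in the islet IGRP- libraries (37.3% and 33.2%). Among cells without one, Tnfsf4 was at 20.9 and 17.9 CPM in IGRP- and 79.1 and 89.2 in IGRP+ libraries. Among cells with one it was at 46.8 and 44.7 and at 80.6 and 80.3. In IGRP+ cells the level of Tnfsf4 was hence much the same in both gates, and in IGRP- cells it was not.

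**Figure D3:**
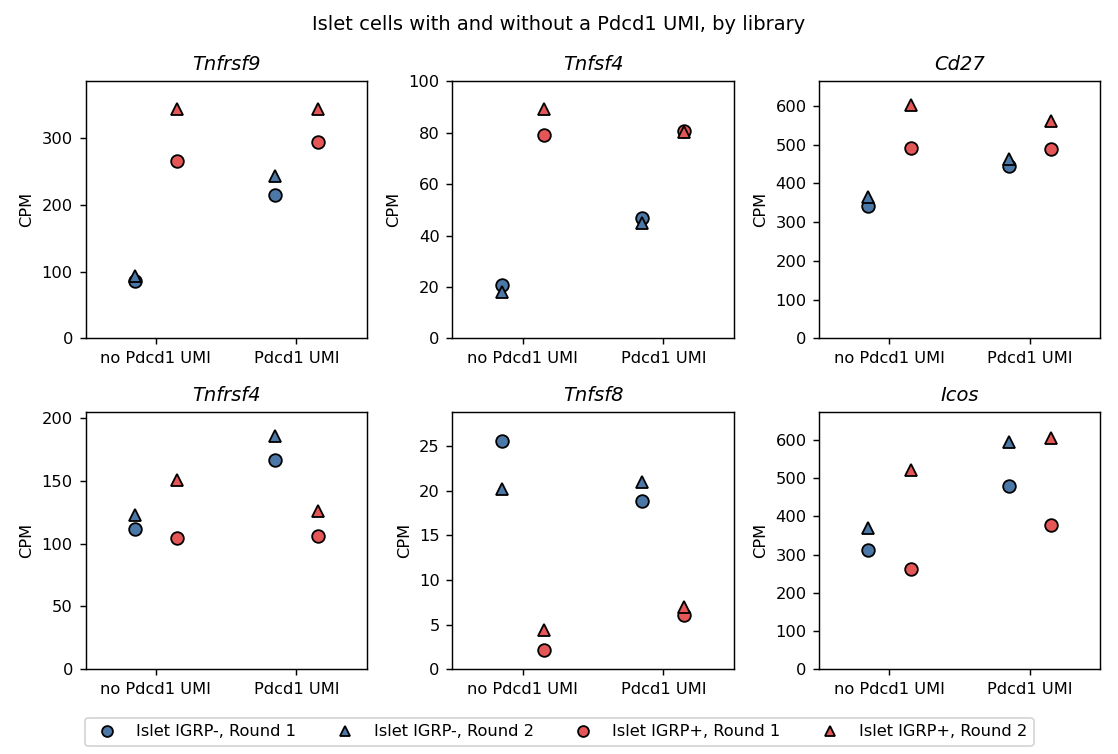
Level of 6 genes, as CPM on linear axes from 0, in islet cells without and with a Pdcd1 UMI, with blue for islet IGRP- and red for islet IGRP+ libraries, circles for Round 1 and triangles for Round 2. For Tnfrsf9 and Tnfsf4 the IGRP- points lie further below the IGRP+ points in cells without a Pdcd1 UMI than in cells with one.

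Tnfrsf9 behaved like Tnfsf4, at 86.6 and 93.2 CPM in IGRP- and 265 and 344 in IGRP+ cells without a Pdcd1 UMI, and 215 and 244 against 294 and 344 with one. Without a Pdcd1 UMI, 1 of the 9 genes was called (Tnfsf4, log2 change 2.05, adjusted p = 0.0420, edgeR) where 0.357% of 10910 genes were. Tnfrsf9 had a log2 change of 1.70 there (adjusted p = 0.0514) and Tnfsf8 of -2.85 (0.0612). With a Pdcd1 UMI, none of the 10956 genes tested was called (0%), the 9 genes included, and 5 of the 9 and 635 of all had an unadjusted p under 0.05. The log2 change of Tnfsf4 in these cells was 0.89 (adjusted p = 0.605) and that of Tnfrsf9 0.55 (0.793). With the round as a block, 4 of the 9 genes were called without a Pdcd1 UMI, where 25% of all genes were, and 5 with one, where 16.1% were.

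The difference between the gates was therefore tested itself, with the library as a block. It was called for 6 of the 9 genes where 9.57% of 11468 genes were called. The log2 change between IGRP+ and IGRP- cells was smaller in cells with a Pdcd1 UMI for Tnfsf4 (by -1.19, SE 0.13, adjusted p = 7.25e-07, edgeR) and Tnfrsf9 (by -1.15, SE 0.083, adjusted p = 1.52e-09). Cells with a Pdcd1 UMI also have more UMIs, and the test was repeated with the gate read after every cell was thinned to 1000 UMIs. It was then called for 4 of the 9 genes where 10.2% of 10552 genes were. Tnfrsf9 (-0.77) and Tnfsf4 (-0.66) stayed called, with Cd28 (-0.22) and Tnfrsf18 (0.27), whereas Tnfrsf4 (-0.03, adjusted p = 0.915), Cd27 (-0.16, 0.131) and Tnfsf14 (-0.75, 0.370) did not pass.

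Finer gates placed the genes in different cells of the islets. Cells with a Top2a or Mki67 UMI, markers of cycling cells, were set apart first (290 and 307 islet IGRP+ cells and 814 and 1023 islet IGRP- cells), so the other gates hold cells without either. The gates rest on a UMI of 1 or a few marker genes, a cell that lacks the UMI may still express the gene, and the levels are given as a description. In islet cells with Pdcd1 and Tcf7, the transcription factor of progenitor-like cells, and without Havcr2, Tnfrsf4 was at 229 and 216 CPM in IGRP- and 193 and 183 in IGRP+ libraries. In cells with Pdcd1 and Havcr2, which encodes the inhibitory receptor TIM-3, it was at 107 and 151 and at 86.4 and 89.2. OX40 transcripts were thus higher on the Tcf7 side in all 4 islet libraries. Tnfsf4 was also highest in the cells with Pdcd1 and Tcf7, at 61.7 and 51.4 in IGRP- and 96.0 and 134 in IGRP+ libraries. The lower IGRP+ value was close to other gates. In IGRP+ libraries Tnfsf4 was at 77.9 to 93.9 in the remaining cells with Pdcd1 and 87.0 to 98.5 in those without it.

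Tnfrsf9 had the opposite order. It was at 269 and 329 CPM in IGRP- and 376 and 434 in IGRP+ cells with Pdcd1 and Havcr2, and at 171 and 157 and at 208 and 300 in the cells with Pdcd1 and Tcf7. OX40 and 4-1BB, both induced receptors, were therefore highest in different gates in each library. Tnfsf8, like Tnfrsf4, was higher in the cells with Pdcd1 and Tcf7 than in those with Pdcd1 and Havcr2. It was at 30.2 and 30.3 in IGRP- and 11.5 and 17.7 in IGRP+ cells with Pdcd1 and Tcf7, and at 7.46 and 2.47 and at 0 and 0 (of 102 and 190 cells without a cycling marker) in those with Pdcd1 and Havcr2. In IGRP- libraries Tnfsf8 did not peak in the Tcf7 gate, with 26.0 to 30.5 in the remaining cells without Pdcd1 and 23.7 to 29.9 in the remaining cells with it.

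**Figure D4:**
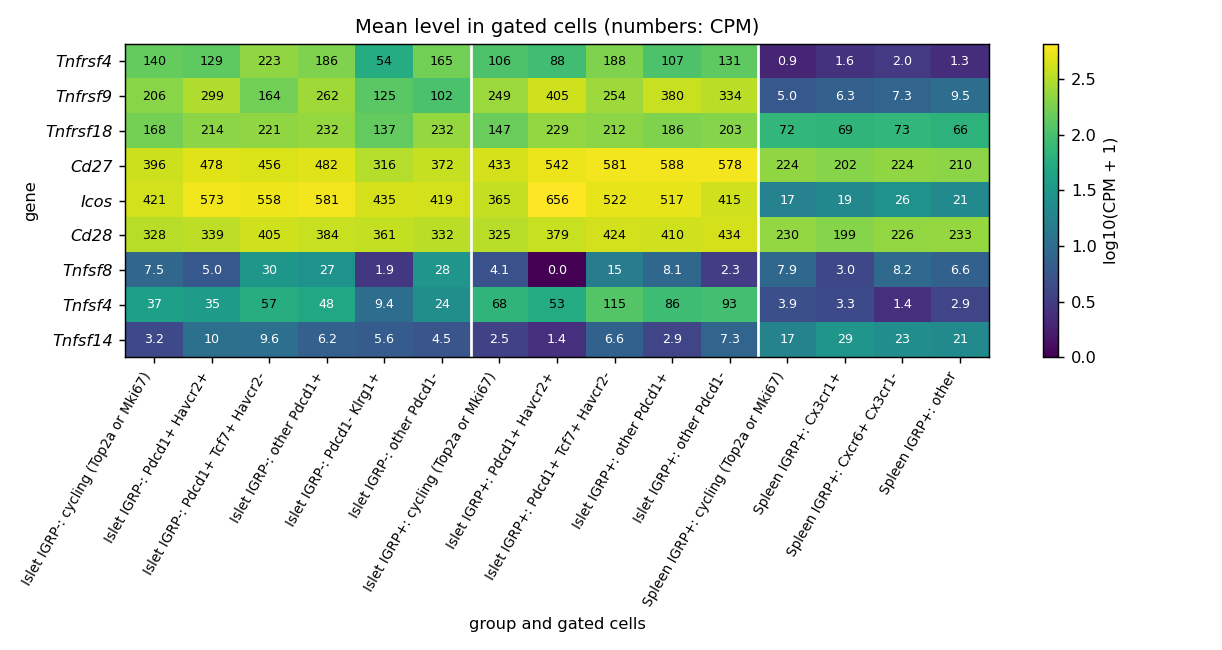
Mean level of the 9 genes in gated cells of each group, averaged over 2 libraries and printed in CPM, with color on a log10 scale after adding 1. Gates with under 20 cells in a library are left out, and not every gate is shown. In the islets, Tnfrsf4 and Tnfsf4 peak in cells with Pdcd1 and Tcf7 and Tnfrsf9 in cells with Pdcd1 and Havcr2, and in the spleen Tnfrsf4 and Tnfrsf9 are below 10 CPM in each gate shown.

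In the spleen, Tnfsf14 was at 22.9 and 34.7 CPM in cells with Cx3cr1, which encodes a chemokine receptor of effector cells, and at 19.9 and 26.7 in cells with Cxcr6 and without Cx3cr1. Tnfsf8 was at 2.99 and 3.10 and at 7.12 and 9.29 in the same gates, from 5 to 8 UMIs in a library. In cells with Cx3cr1, Tnfsf8 was thus lower and Tnfsf14 higher than in cells with Cxcr6 in both rounds, and the Tnfsf14 levels of the gates overlapped across rounds. Tnfrsf4 was at 1.99 and 1.24 in cells with Cx3cr1 and 2.85 and 1.16 in cells with Cxcr6, and Tnfrsf9 at 6.48 and 6.19 and at 9.97 and 4.65, so neither gate approached the islet level of either gene.

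The share of cells with at least 1 UMI gave a similar order. Unthinned, 16.8% and 16.6% of islet IGRP- cells, 19.9% and 22.7% of islet IGRP+ cells and 0.482% and 0.412% of spleen cells held a Tnfrsf4 UMI. For Tnfrsf9 the shares were 25.6% and 26.7%, 50.9% and 57.2%, and 1.93% and 1.73%. After thinning to 1000 UMIs per cell, the 6 receptors and Tnfsf4 had higher shares in both islet IGRP+ libraries than in both spleen libraries. How many of all genes have such an order was not counted, here or between the islet groups. Against islet IGRP- cells the shares were higher for Tnfrsf9 (20.5% and 25.0% against 9.49% and 10.0%), Tnfsf4 (6.37% and 6.69% against 2.41% and 2.04%) and Cd27 (39.7% and 44.3% against 30.3% and 31.0%). The thinned share of Tnfrsf4 was 6.54% and 7.27% against 7.69% and 7.96%, so its unthinned excess in IGRP+ cells was not seen at equal depth. A positive islet IGRP- cell held 3.67 and 4.01 Tnfrsf4 UMIs on average, and a positive islet IGRP+ cell 2.60 and 2.90.

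Free RNA was gauged in 64 islet barcodes in which acinar genes made up at least 20% of UMIs, with a median of 763.5 UMIs. One held a Tnfrsf9 UMI and 1 an Icos UMI (1.56%, exact 95% interval up to 8.40%), and none held another of the 9 genes, which allows a share of up to 5.60% by the exact method for counting error only. In islet cells thinned to 500 UMIs, shares were 17.3% to 26.3% for Cd27, 16.2% to 24.3% for Icos, 13.6% to 20.025% for Cd28 and 7.64% to 12.1% for Tnfrsf18. The shares of Tnfrsf4 (4.24% to 5.28%), Tnfsf4 (1.07% to 3.44%), Tnfsf8 (0.332% to 1.20%) and Tnfsf14 (0.0626% to 0.332%) lay under the limit that these barcodes set in all 4 islet libraries. Those of Tnfrsf9 (5.44% to 14.6%) lay under its limit of 8.40% in both IGRP- libraries and above it in both IGRP+ libraries. By detection alone, the shares of Tnfrsf4 and the ligands in islets, and of Tnfrsf9 in IGRP- libraries, cannot be told from free RNA. No such acinar barcodes were found in the spleen.

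Several of the genes were found in the same islet cells. At 1000 UMIs per cell, 71.0% and 75.9% of islet IGRP- cells, 81.1% and 86.4% of islet IGRP+ cells and 40.2% and 41.6% of spleen cells held at least 1 of the 9. At least 3 were held by 11.8% and 14.5%, by 15.7% and 25.7%, and by 0.463% and 0.632%. Tnfrsf4 and Tnfsf8 were found together in 107 islet cells where the product of their shares gives 22.4, and the ratio was 4.46 to 5.74 in the 4 islet libraries. In the islet IGRP- libraries 48 and 54 cells held both (ratios 5.12 and 4.46). The ratios of the islet IGRP+ libraries (5.74 and 4.59) rest on only 3 and 2 cells with both. Tnfrsf4 and its ligand gene Tnfsf4 were found together in 120 cells where the product gives 38.5 (ratio 1.43 to 3.57). Tnfrsf9 with Tnfsf4 had a ratio of 1.23 to 2.66 and Tnfrsf4 with Tnfrsf18 of 1.46 to 1.53. Doublets were not called, and their part in these counts was not tested.

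**Figure D5:**
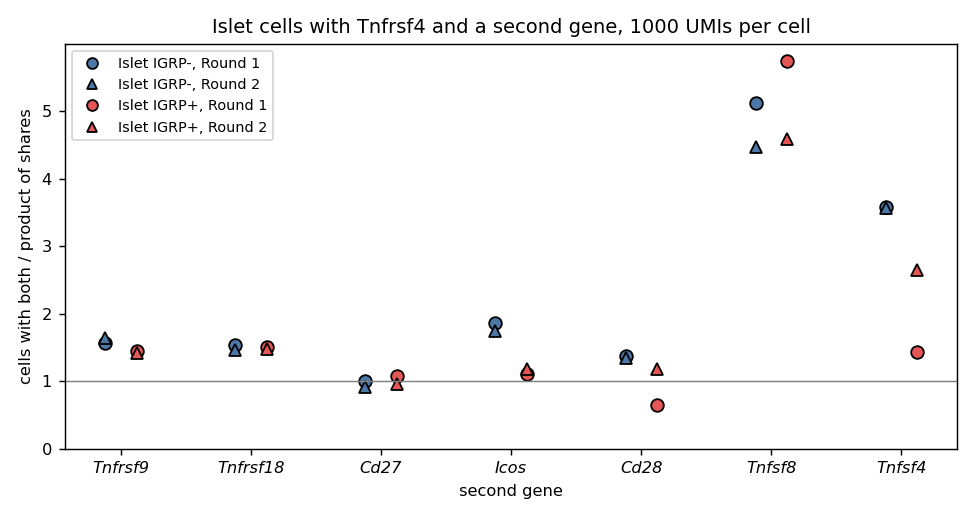
Number of islet cells with a UMI of Tnfrsf4 and of a second gene, divided by the number that the product of the 2 shares gives, at 1000 UMIs per cell, with blue for islet IGRP- and red for islet IGRP+ libraries, circles for Round 1 and triangles for Round 2. The line marks a ratio of 1. Tnfsf8 stands at 4.46 to 5.74 in the 4 libraries and Tnfsf4 at 1.43 to 3.57. The red points of Tnfsf8 rest on only 3 and 2 cells with both genes.

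Related genes were read from lists by role. Of 12 other TNF receptor genes tested, 3 were higher and 3 lower in islet IGRP+ than in spleen IGRP+ cells, with a median log2 change of 0.18. Tnfrsf1b, which encodes TNF receptor 2, was at 117 and 181 against 23.5 and 38.7 CPM (log2 change 2.36, adjusted p = 0.00317, edgeR). Fas (1.13) and Tnfrsf1a (0.75) were the others that rose. Tnfrsf25, encoding death receptor 3, was at 2.72 and 2.88 against 23.0 and 28.5 (log2 change -3.10, adjusted p = 0.00145), and Tnfrsf13c (-1.30) and Tnfrsf10b (-1.09) also fell. Against islet IGRP- cells, only Tnfrsf10b was called among these 12, with 1.02 and 1.13 against 7.68 and 8.43 (log2 change -2.91, adjusted p = 0.0193). Among the other TNF receptors as many genes thus fell as rose between the tissues, where all 4 costimulatory ones rose.

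Of 8 other TNF ligand genes tested, Tnfsf11, encoding RANKL, was higher in islet IGRP+ than in spleen IGRP+ cells (8.67 and 13.0 against 1.87 and 2.32 CPM, log2 change 2.46, adjusted p = 0.00287, edgeR). Ltb and Tnf were lower, both with a log2 change of -1.51. None of the 8 was called between the islet groups. Tnfsf9, encoding the 4-1BB ligand, was at 12.6 and 13.8 in islet IGRP+, 7.48 and 8.43 in islet IGRP- and 10.9 and 12.5 in spleen IGRP+ cells and passed neither test.

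Among 8 other accessory receptors of the immunoglobulin family, Ctla4, an inhibitory relative of CD28, was at 270 and 476 CPM in islet IGRP+ and 21.8 and 25.0 in spleen IGRP+ cells (log2 change 4.06, adjusted p = 0.00155, edgeR). Pdcd1 (3.92) and Cd2 (0.84) rose too, and Slamf6 (-1.41) and Cd226 (-1.36) fell. Among 4 genes for ligands of CD28-family receptors tested, Pdcd1lg2, encoding PD-L2, rose by 3.28, and none fell. Between the islet groups Pdcd1 was the only call in these lists.

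Downstream of the TNF receptors, 7 of 18 genes for TRAF adaptors and NF-κB were higher in islet IGRP+ than in spleen IGRP+ cells and 1 was lower, with a median log2 change of 0.67. Traf4 (122 and 139 against 24.5 and 32.6 CPM) had a log2 change of 2.30, and the NF-κB subunit genes Nfkb2 and Relb of 2.21 and 1.56. Birc3, encoding a TRAF-bound inhibitor of apoptosis, had 1.22, and Traf5 had -1.20. Downstream of CD28 and ICOS, 1 of 11 genes was higher (Akt2, 1.05) and 4 were lower, with a median log2 change of 0.069. The lower ones included Prkcq, encoding the kinase PKCθ (-1.76), Pik3cd (-1.02) and Vav1 (-0.67). No gene of either list was called between the islet groups.

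Of 8 transcription factor genes induced by the T-cell receptor, Nr4a3 (log2 change 3.52), Nr4a1 (2.63), Nr4a2 (2.04) and Egr2 (1.93) rose and Myc (-1.73) fell in islet IGRP+ against spleen IGRP+ cells, and none was called between the islet groups. Of 12 genes of the response to dissociation and stress, Atf3 rose (3.16) and Hspa1b (-2.29), Jun (-1.98), Fos (-1.30), Ier2 (-0.87) and Zfp36 (-0.87) fell between the same tissues. These values move with the tissue beside the costimulatory genes, and their part in the result was not tested. Without cells that carried markers of other cell types, 9 of the 9 genes were still called between the tissues, where 2966 of 11176 genes were. Between the islet groups 1 of the 9 was called, where 153 of all genes were.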

How the data were processed

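Cells of 6 libraries were sequenced with 10x 5′ chemistry, and kits and read lengths differed between rounds. The authors deposited raw UMI counts per gene and cell, made with Cell Ranger (version 5.0.1 in the file headers) on mm10, with no filter on genes or mitochondrial share, and contig tables of the T-cell receptors, which gave the clones and β chains here. A UMI counts 1 molecule at its 5′ end, so levels were not scaled by length. Whether counting used strand is not given in the sources used here, so genes that overlap on the other strand cannot be separated.

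Cells with under 5% mitochondrial UMIs and 200 to 3500 genes (islets) or 200 to 2000 genes (spleen) were kept. Counts were summed per library and tested with edgeR 4.0.16 (TMM, filterByExpr, quasi-likelihood, adjusted over all genes tested, called at 0.05) in R 4.3.3 with limma 3.58.1. Each gate on Pdcd1 was fitted in the 4 islet libraries. In the main fit a p-value measures the spread between the 2 libraries of a group, estimated over the 3 groups together. That spread includes what differed between the rounds. DESeq2 1.42.0 was an alternative. Python 3.11.15, numpy 2.4.6, pandas 2.3.3, scipy 1.17.1 and matplotlib 3.10.9 were used for the rest, and thinning used a fixed seed. Intervals are exact (Clopper-Pearson, 95%) and cover counting error only. The fits were tested on simulated data.

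Rounds pair the libraries, since the libraries of a round came from the same pool of mice. Round deviations correlated between groups with Pearson r of 0.858, 0.875 and 0.821 over 5632 genes. The main fit left out the block and so did not use this pairing. Calls between the islet groups depended on that choice, with 1 of the 9 genes called without the block and 4 with it.

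The text names the 9 genes, at most 4 called genes with the largest change per list, direction and comparison, and for each of the 9 genes with at least 20 CPM in a group the 3 genes of most similar level over 34 sums of gated cells, on log2(CPM + 10). Genes of the gates, and genes named in the text because they encode a partner of one of the 9, fall outside this rule. So does the dissociation and stress list, of which all 5 genes called lower in islet IGRP+ than in spleen IGRP+ cells are named. Some items are not reported here. The genes, lists and gates were chosen with earlier results of these data known. The acinar barcodes were taken from all barcodes after only 1 of 64 was seen to pass the filters, and leave-one-out fits of the Pdcd1 gates were added after the data were seen. Promoters came from RefSeq (GRCm38.p6), with no entry used for Icos, Cd28 or Tnfsf4.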

Additional observations from a re-analysis of the deposited data

Results flagged for a closer look

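The difference between islet IGRP+ and IGRP- cells differed between cells with and without a Pdcd1 UMI for 6 of the 9 genes, by edgeR's test of that interaction, adjusted over 11468 genes, of which 9.57% were called. The log2 change in cells with a Pdcd1 UMI minus that in cells without one was -1.19 for Tnfsf4, -1.15 for Tnfrsf9, -0.59 for Tnfrsf4 (adjusted p = 0.000354), -0.29 for Cd27 (0.00554), -0.28 for Cd28 (0.0130) and -1.73 for Tnfsf14 (0.0251). For Tnfrsf4, the levels were 112 and 123 CPM in IGRP- and 104 and 151 in IGRP+ cells without a Pdcd1 UMI, and 166 and 186 against 106 and 126 with one. When the gate was read after thinning every cell to 1000 UMIs, Tnfrsf4 (-0.03, adjusted p = 0.915), Cd27 (-0.16, 0.131) and Tnfsf14 (-0.75, 0.370) lost their calls, Tnfsf4, Tnfrsf9 and Cd28 kept theirs and Tnfrsf18 gained one, where 10.2% of all genes were called. Tnfsf14 rests on 9 to 10 UMIs in 3 of the 4 IGRP+ sums and 26 in the other. Without the islet IGRP+ library of Round 2, Tnfrsf9, Tnfsf4 and Tnfsf14 remained called (649 of 12234 genes in all), and without any of the other 3 libraries 6 or 7 of the 9 genes were called (1033 to 1106 genes in all).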

How the results depend on the processing

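Of the 135 values of the 9 genes in 15 alternatives to each comparison, 122 of islet IGRP+ against spleen IGRP+ cells kept direction and side of the threshold, 12 lost their call and 1 changed sign (Tnfsf8, 1.45 in clones of both tissues). Against islet IGRP- cells, 114 kept both, 8 lost their call, 9 gained one and 4 changed sign. The last were Tnfsf14 (0.0362 at 2000 genes per cell at most), Icos (-0.16 in clones of at least 2 cells), and Icos and Tnfrsf18 in leave-one-out fits, which gave -0.14 to 0.37 and -0.47 to 0.0032. None of these was called in any fit.

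In islet IGRP+ against IGRP- cells, 1 of the 9 genes and 134 genes in all were called. The 9 genes gave 3 calls at 2000 genes per cell at most, 3 with DESeq2, 3 without a filter on low counts, 4 with the round as a replicate block, 0 in clones of at least 2 cells, 0 in cells with 1 β chain and 0 to 0 without any one library. All genes gave 201 calls at 2000 genes per cell at most, 574 with DESeq2, 711 without a filter (where the median of all genes was -0.15), 3442 with the block, 2 in expanded clones, 74 with 1 β chain and 0 to 30 without 1 library. Against the spleen, 3004 genes were called, 6215 with the block and 892 to 2050 without 1 library, and 6 to 8 of the 9 genes without 1 library. In cells with a Pdcd1 UMI the block gave 5 calls among the 9 genes and 1766 of 10956 in all, against 0 and 0. In cells without one there was 1 call (39 of 10910 in all), with 4 under the block (2728), 0 with the gate read at 1000 UMIs per cell (41) and 0 to 3 in leave-one-out fits (20 to 460). The difference between the gates gave 3 to 7 without any one library (649 to 1106). Of the 9 genes, those with a higher detection share in islet IGRP+ than IGRP- cells numbered 3 at 1000 UMIs per cell, 6 unthinned, 4 at 500 and 5 at 1500, a count not made over all genes. The cause of these changes was not tested. With 2 pools per group and 5880696 UMIs in the smallest library, ligand genes near 5 CPM rest on 19 to 51 UMIs in an islet IGRP+ library.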

Other observations

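Over 34 sums of gated cells by library, the levels of 7 of the genes (the 6 receptors and Tnfsf4) moved together, with Pearson r of 0.69 to 0.96 in 21 pairs. The sums share libraries and the split between islets and spleen, and the values are a description. Tnfsf14 had r of -0.68 to -0.05 with the other genes and Tnfsf8 of -0.22 to 0.09. Among 5624 genes compared, the levels most like Tnfrsf4 were those of Ldlrad4 (r = 0.96), Lin54 and Izumo1r, and those most like Tnfrsf9 were Gdi2 (0.98), Sult2b1 and Sh2d2a. Gdi2 also led for Cd27 (0.96), followed by Tnfrsf9 itself and Hmces. Icos was followed by Isy1 (0.98), Dgat1 and Skil, Tnfrsf18 by Il21r (0.96), Cblb and Bend4, Cd28 by Gxylt1 (0.95), Nr4a2 and Stx11, and Tnfsf4 by Dusp14 (0.94), Slc25a3 and Phactr2. The 2 genes apart from the rest had looser neighbors, with Actn1 (0.82), Sh3bp5 and Rflnb for Tnfsf8 and Bcl11b (0.86), Il18r1 and Dguok for Tnfsf14.

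In cells of islet clones with at least 2 cells, none of the 9 genes was called between the islet groups by edgeR, where 2 of 10556 genes were. Of the 9, 4 had an unadjusted p under 0.05, a number not counted over all genes. Tnfrsf9 was at 227 and 245 CPM in IGRP- and 278 and 346 in IGRP+ cells, with a log2 change of 0.48. Tnfsf4 was at 49.3 and 48.4 against 83.1 and 79.3 (0.82). Tnfrsf4 was at 196 and 241 against 113 and 121 (-0.81), with a larger gap than in whole libraries, and Tnfsf8 had a log2 change of -1.80.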
